A study of Mus musculus with 8 samples.

Results

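Macrophages grown from mouse bone marrow (bone marrow-derived macrophages, BMDMs) were compared without treatment and after 4 h with 100 ng/ml lipopolysaccharide (LPS), a component of the outer membrane of gram-negative bacteria. The comparison was chosen by treatment label alone and held 4 of the 8 libraries of the study, 2 from untreated cells, called control, and 2 from LPS-treated cells, numbered 1 and 3 in each group. The other 4 libraries came from cells given 20 ng/ml interleukin 4 (IL-4) for 24 h, without or with a later 4 h of LPS, and entered the filter, the estimate of the spread and the checks named where they are used. No genotype, strain, age or count of animals was given in the sources used here, nor whether same-numbered libraries came from the same cells. Sex-linked reads, given below, differed between libraries 1 and 3 of each group, so the spread behind the p-values includes a difference between source animals, but how many animals each library holds is unknown. Of 54532 genes in the deposited count table, 12234 passed the filter on low counts and were tested.

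LPS is bound by Cd14 and passed to the receptor Tlr4 with its partner Ly96 at the cell surface. Through the adaptors Myd88 and Ticam1 the receptor activates the transcription factors NF-kB, AP-1 and Irf3. These switch on cytokines, chemokines, feedback inhibitors and type I interferon, and interferon in turn acts through Stat2 and its partners on antiviral genes.

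LPS changed the level of a large part of the macrophage transcriptome. Of the 12234 genes tested, 2663 rose, which was 21.8%, and 2279 fell, which was 18.6% (edgeR's quasi-likelihood test, Benjamini-Hochberg adjusted p under 0.05). At that threshold 1783 genes, 14.6% of those tested, rose at least 2-fold, and 1454, 11.9%, fell at least 2-fold. The increases reached further than the decreases: 329 genes rose by at least 4 on the log2 scale and 70 fell by as much. In all 4942 called genes the LPS libraries lay apart from the control libraries without overlap, as they did in 72.6% of all tested genes.

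**Figure D1:**
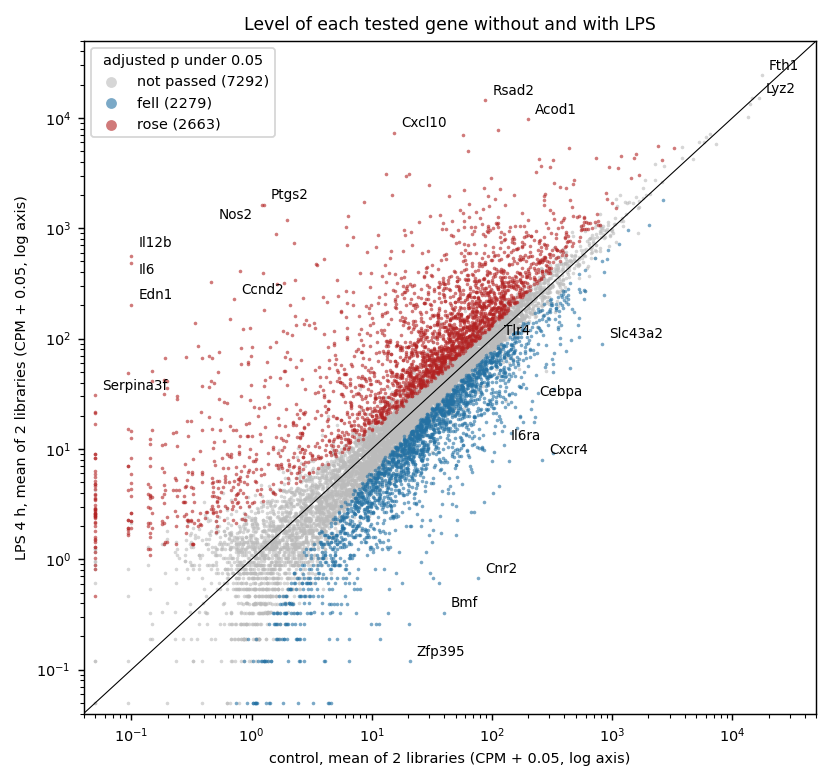
Mean level of each of the 12234 tested genes in the 2 control libraries (x axis) and the 2 LPS libraries (y axis), in CPM (reads relative to the TMM-scaled library size) plus 0.05 on log axes, coloured by the call. Points above the diagonal line are higher with LPS, and the 2663 genes that rose spread further from it than the 2279 that fell.

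The genes that rose took a far larger share of the reads after LPS. Genes that rose took 21.7% and 22.3% of the reads on tested genes in the control libraries, and 52.0% and 52.1% in the LPS libraries. Those that rose at least 16-fold went from 0.307% and 0.494% of reads to 12.5% and 11.6%, and genes that fell went from 16.6% and 15.5% to 5.21% and 4.73%. Because reads are shares of a library, the scale between libraries matters for the direction of small changes. The scale used here (TMM factors) put the median of all tested genes at -0.013, on the log2 scale, against -0.28 with upper-quartile factors and -0.615 with library totals alone. Under library totals alone 1547 genes rose and 5745 fell, and under upper-quartile factors 2044 rose and 3542 fell. Values in brackets below are log2 fold changes of LPS over control on the TMM scale, with the standard error (SE) of the fit (2 libraries per group), and adjusted p-values are from the same edgeR test.

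**Figure D2:**
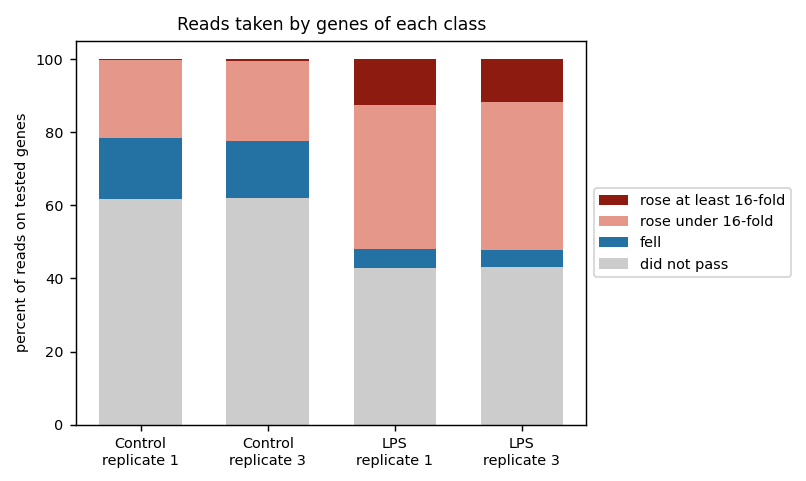
Percent of the reads on tested genes taken by genes that did not pass, fell, rose under 16-fold or rose at least 16-fold, in each library (stacked bars). In the LPS libraries genes that rose hold 52.0% and 52.1% of reads, against 21.7% and 22.3% in the control libraries.

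The 4 libraries held 8480057 to 9247019 counts, of which 1.07% to 1.61% were mitochondrial. Both replicate 1 libraries held Xist reads, 3819 and 2936, and both replicate 3 libraries held 0, with 1555 and 1316 reads on the Y chromosome. Macrophage markers were abundant, as the label says: Lyz2, lysozyme, held 13434 and 19576 CPM in control and 13904 and 16072 CPM with LPS, and Cd68 held 999 and 1056 CPM in control and 982 and 1179.8 CPM with LPS. Both were high in every library and did not pass the test. With library totals alone both fell, Lyz2 (-0.74, adjusted p = 0.041) and Cd68 (-0.53, adjusted p = 0.0275). Of the 11 macrophage markers 3 rose and 1 fell (2 and 4 with library totals alone). Among markers of other blood cells, Cd3e, Ncr1, Ly6g, Elane and Hbb-bs held 0 reads in all 4 libraries. Other members of those lists were present and some rose.

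The tested T, B and natural killer cell markers, 2 of 16, summed to 14.3 and 3.96 CPM in control and 32.6 and 11.3 CPM with LPS. Lck, a kinase of T cell receptor signalling, rose from 9 reads to 215, with 21.7 and 8.29 CPM with LPS. The other tested marker did not pass (-0.33), so the higher sum with LPS came from Lck. Of 13 neutrophil markers 2 were tested, with sums of 51.0 and 77.2 CPM in control and 169 and 135.0 CPM with LPS, and Csf3r, the receptor of the granulocyte factor, rose (1.25 ± 0.24). Of 11 markers of mast cells, basophils and eosinophils 3 were tested, with sums of 25.2 and 18.2 CPM in control and 101 and 59.8 CPM with LPS. Hdc, which makes histamine, rose from 7 reads to 949, with 79.2 and 52.9 CPM with LPS. The other 2 did not pass, so the higher sum with LPS came from Hdc. Of 12 stromal and endothelial markers 7 were tested, with sums of 65.8 and 27.4 CPM in control and 171 and 179.8 CPM with LPS, and Pdgfrb, Kdr and Cdh5 rose (4.89 ± 0.70, 1.81 ± 0.44 and 2.62 ± 0.66). The call of Kdr ended with library totals alone (adjusted p 0.0568). The call of Cdh5 ended when control replicate 1 or LPS replicate 1 was left out (adjusted p 0.0947 to 0.102). The 1 tested marker of 11 for erythroid cells and megakaryocytes did not pass, at 4.33 and 3.76 CPM in control and 6.72 and 6.08 CPM with LPS. The tested dendritic cell markers, 5 of 10, summed to 2.16 and 2.37 CPM in control and 49.6 and 30.5 CPM with LPS, and 3 of them rose, Fscn1, Ccr7 and Xcr1. The call of Ccr7 ended when control replicate 1 or LPS replicate 1 was left out (adjusted p 0.0601 to 0.0619). The call of Xcr1 ended when control replicate 1, control replicate 3 or LPS replicate 1 was left out (adjusted p 0.0569 to 0.0645). The part of all these marker genes in the changes below was not tested. In such bulk samples fewer cells of a type and less RNA per cell cannot be told apart.

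Control replicate 3 carried higher levels of LPS-responsive genes than control replicate 1. Taking the responsive genes from the 4 IL-4 libraries, which share no library with this comparison, 136 genes were at least 16-fold higher with LPS there and had at least 10 reads in both control libraries. Of these, 111 were higher in control replicate 3, by a median of 0.64 on the log2 scale, against 0.01 over 11020 genes. By the same criterion in the IL-4 libraries, 294 genes had at least 10 reads in both LPS libraries, and 132 of these were higher in LPS replicate 3. Without control replicate 3, 2043 genes rose and 1726 fell.

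**Figure D3:**
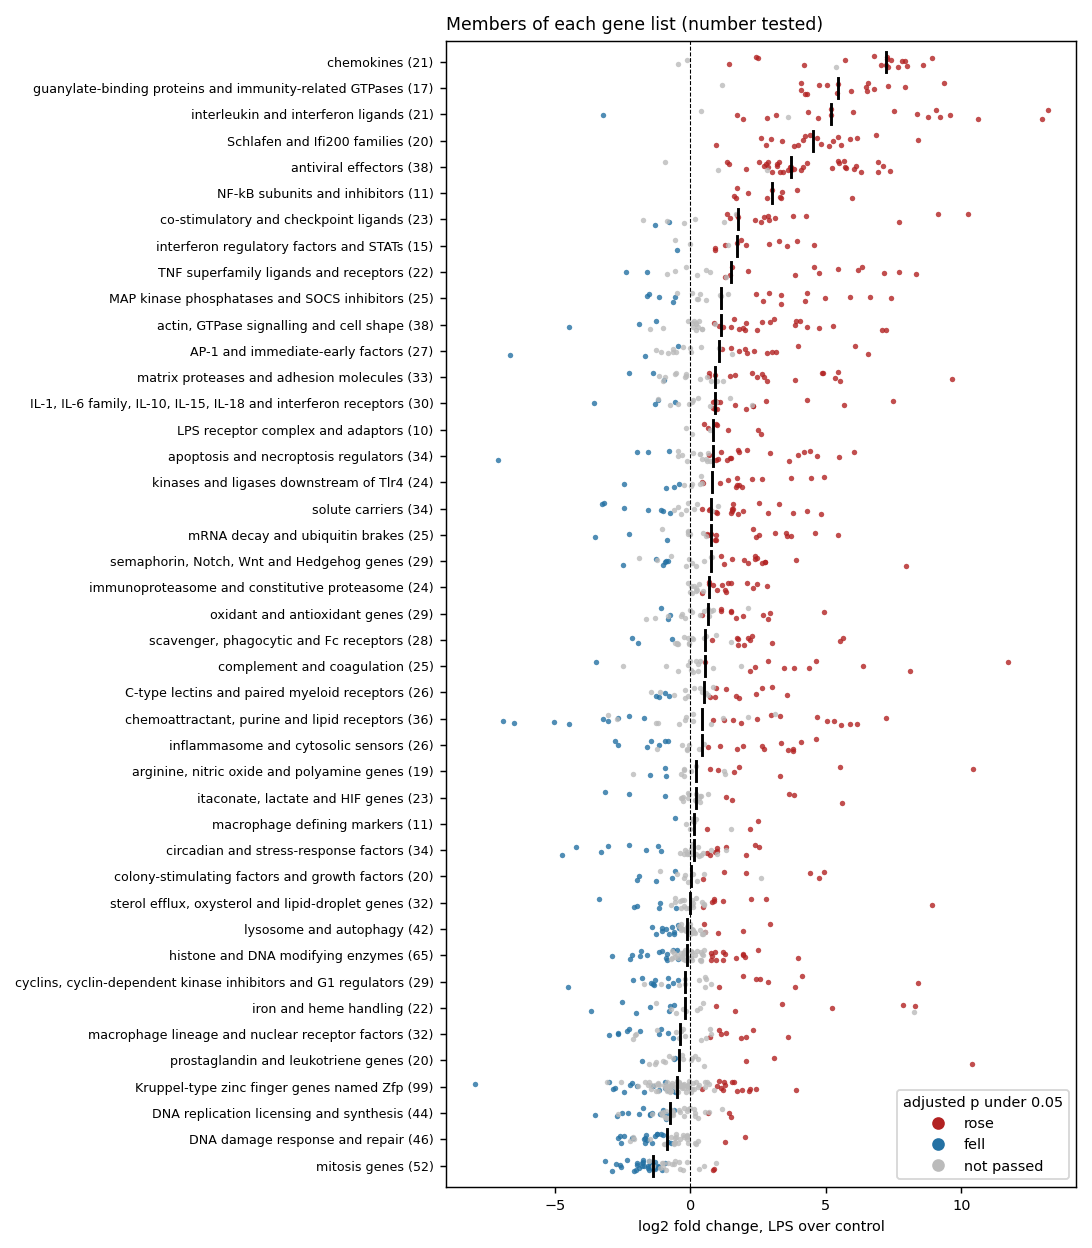
Log2 fold change (LPS over control) of every tested member of 43 gene lists, one point per gene coloured by the call, with the list's median as a black bar and the number tested in brackets. The dashed line is the median of all tested genes, -0.013; chemokines have the highest median, 7.24, and mitosis genes the lowest, -1.38.

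Counts of list members that rose and fell are given below on the TMM scale. Brackets after them give the same counts under settings that changed the balance of the list or moved its larger count by over 1.5 times. The replicate block, a fit with the replicate number as a further term, is left out of the brackets. It called more genes, 3453 up and 3121 down, and moved some lists by as much. With it 5 replication genes rose and 23 fell, 18 and 7 oxidant and antioxidant genes, and 16 and 32 Zfp genes.

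Parts of the LPS receptor complex rose on the TMM scale while the receptor itself did not pass the test. Of 10 tested LPS receptor complex and adaptors, 7 rose and none fell (3 and 2 with library totals alone, 4 and 0 with upper-quartile factors, 4 and 0 in the 4 libraries alone, 3 and 0 leaving out control replicate 1, 3 and 0 leaving out control replicate 3), at a median log2 fold change of 0.84. Tlr4, the receptor itself, was at 109 and 108 CPM in control and 107 and 86.1 CPM with LPS and did not pass the test (-0.17 ± 0.19). With library totals alone Tlr4 fell (-0.77, adjusted p = 0.0169). Its co-receptor Cd14 rose, with 475 and 353 CPM in control and 2368 and 2269 CPM with LPS (2.49 ± 0.19, adjusted p = 4.99e-05). Myd88, the adaptor of the NF-kB branch, held 58.2 and 67.7 CPM in control and 356 and 405 CPM with LPS (2.60 ± 0.18, adjusted p = 3.16e-05). Both LPS libraries were above both control libraries for Cd14 and Myd88, while for Tlr4 LPS replicate 1 lay just below the control values and LPS replicate 3 further below.

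Kinases and ubiquitin ligases below the receptor rose more often than they fell. Of 24 tested kinases and ligases downstream of Tlr4, 14 rose and 4 fell, at a median log2 fold change of 0.80. Ripk2, the kinase that Nod1 and Nod2 signal through, rose, with 12.2 and 11.9 CPM in control and 349 and 392 CPM with LPS (4.94 ± 0.15, adjusted p = 4.98e-06). The signalling adaptor Traf1 (4.45 ± 0.29), the ubiquitin ligase Peli1 (3.73 ± 0.34) and the kinase Map3k8 (2.65 ± 0.32) rose with it. Peli2, a relative of Peli1, fell, with 56.3 and 54.7 CPM in control and 10.6 and 9.81 CPM with LPS (-2.44 ± 0.16, adjusted p = 2.44e-05). The pair moved apart in both replicates.

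All of the NF-kB system rose. Of 11 tested NF-kB subunits and inhibitors, 11 rose and none fell, at a median log2 fold change of 3.01. The share of all tested genes that rose was 21.8%. Nfkbiz, a nuclear cofactor of the Il6 and Il12b genes, held 5.19 and 16.3 CPM in control and 650.1 and 690.0 CPM with LPS (5.97 ± 0.82, adjusted p = 0.000918). Nfkbia, the inhibitor that holds NF-kB in the cytoplasm, held 58.5 and 125 CPM in control and 979.8 and 928 CPM with LPS (3.38 ± 0.48). The subunit Nfkb1 rose (3.31) and Rela (1.71). Control replicate 3 was the higher control library for each of these 4 genes, and no control value reached an LPS value.

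The immediate-early and AP-1 factors did not move as one. Of 27 tested AP-1 and immediate-early factors, 12 rose and 3 fell, at a median log2 fold change of 1.05. Batf2, a partner of Jun proteins, held 0.692 and 2.87 CPM in control and 124 and 111 CPM with LPS (6.08 ± 0.44, adjusted p = 4.19e-05). Batf, of the same family, rose (3.98 ± 0.29), and the nuclear receptor Nr4a3 (6.57 ± 0.68). Fos, the classical early AP-1 gene, held 49.3 and 47.4 CPM in control and 32.2 and 7.88 CPM with LPS and did not pass (adjusted p = 0.182), and Egr2 fell (-1.66 ± 0.37).

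Interferon regulatory factors and STATs (signal transducers of cytokine receptors) mostly rose. Of 15 tested interferon regulatory factors and STATs, 11 rose and 1 fell, at a median log2 fold change of 1.71. Irf7, which amplifies type I interferon, held 34.1 and 49.1 CPM in control and 977 and 993 CPM with LPS (4.57 ± 0.31, adjusted p = 2.97e-05). Irf3, which is switched on by phosphorylation, held 25.4 and 30.1 CPM in control and 25.9 and 29.6 CPM with LPS and did not pass. Stat2, a subunit of the factor that type I interferon activates, rose (3.29 ± 0.23). Ifnb1, interferon beta, went from 2 reads to 55 over the 2 libraries of each group, with a ratio of 41.4 and a 95% counting interval from 10.9 to 351, and was at 5.04 and 2.63 CPM with LPS.

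Most interleukin genes rose. Of 21 tested interleukin and interferon ligands, 18 rose and 1 fell, at a median log2 fold change of 5.19. Il6 held 1 read over both control libraries and 6983 over both LPS libraries, at 410.3 and 559.9 CPM with LPS, with a ratio of 10520.0 and a 95% counting interval from 1888 to 415700.0, with an adjusted p of 9.01e-06. Il12b, which forms IL-12 and IL-23 with partner chains, also held 1 control read, and 319 and 805 CPM with LPS, with a ratio of 12210.0 and a 95% counting interval from 2191 to 482400.0. Il12a, the partner in IL-12, was not seen in control and reached 12.5 and 30.4 CPM, at least 155.2-fold higher taking 3 reads as the limit of a count of 0 over the control group. For all 3 genes both LPS libraries were far above control, and LPS replicate 3 was the higher of them.

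The IL-1 family and IL-27 followed. Il1b held 2.68 and 1.19 CPM in control and 1355 and 1018 CPM with LPS (9.23 ± 0.53, adjusted p = 1.75e-05). Il1a held 0.519 and 0.297 CPM in control and 390.3 and 262 CPM with LPS, and Il27 held 0.519 and 0.989 CPM in control and 371 and 446 CPM with LPS. Il10, the main anti-inflammatory interleukin of macrophages, was far less even: it held 0.260 and 0.396 CPM in control and 37.2 and 6.22 CPM with LPS (6.01 ± 1.12, adjusted p = 0.00398), so LPS replicate 1 stood well above LPS replicate 3 and both above control. Il16 was the only tested ligand of the list that fell (-3.23 ± 0.52).

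The TNF superfamily rose in the main. Of 22 tested TNF superfamily ligands and receptors, 13 rose and 2 fell, at a median log2 fold change of 1.51. Tnf held 9.95 and 49.7 CPM in control and 1542 and 3338 CPM with LPS (6.36 ± 1.06, adjusted p = 0.00237). The ligand Tnfsf15 held 1.30 and 1.09 CPM in control and 367 and 421 CPM with LPS (8.34 ± 0.26). Cd40, the receptor through which T cells activate macrophages, held 2.94 and 9.59 CPM in control and 1187 and 1388 CPM with LPS (7.69 ± 0.73). The Tnf receptor genes were abundant from the start and rose less, Tnfrsf1b (1.56 ± 0.23) and Tnfrsf1a (1.29 ± 0.14), while Tnfrsf21 fell (-2.38 ± 0.28).

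Growth factors gave no common direction. Of 20 tested colony-stimulating factors and growth factors, 6 rose and 5 fell (4 and 10 with library totals alone, 4 and 7 with upper-quartile factors, 4 and 4 in the 4 libraries alone, 5 and 7 with no filter on low counts), at a median log2 fold change of 0.027 (-0.58 with library totals alone and -0.24 with upper-quartile factors). Csf1, which sustains macrophages, held 11.3 and 7.81 CPM in control and 285 and 302 CPM with LPS (4.93 ± 0.20, adjusted p = 9.01e-06). Csf1r, its receptor, held 2359 and 2949 CPM in control and 1731 and 1863 CPM with LPS (-0.56 ± 0.18, adjusted p = 0.0401). The call of Csf1r ended in the 4 libraries alone and when control replicate 3, LPS replicate 1 or LPS replicate 3 was left out (adjusted p 0.0673 to 0.189). Csf3, the granulocyte factor, held 0 reads in control and 2 and 4 reads with LPS, too few to test. Transforming growth factor receptor Tgfbr1 fell (-1.87 ± 0.15), and the vessel growth factor Vegfa (-1.97 ± 0.42).

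Chemokines had the highest median of all lists. Of 21 tested chemokines, 18 rose and none fell, at a median log2 fold change of 7.24. Cxcl10, which attracts activated T cells, held 5.71 and 24.7 CPM in control and 7620.4 and 7034 CPM with LPS (8.92 ± 1.02, adjusted p = 0.000354). Ccl3, which attracts monocytes and other leukocytes, held 14.3 and 24.4 CPM in control and 2456 and 3513 CPM with LPS (7.27 ± 0.37). The neutrophil chemokines Cxcl1 and Cxcl2 rose (7.24 ± 0.65 and 7.05 ± 0.75). Summed over the tested chemokines the level went from 876 and 1077 CPM in control to 18270 and 21700 CPM with LPS, without overlap.

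The promoters of Cxcl1, Cxcl2 and Il6 are shown because each held the letters searched for NF-kB. The windows of Il12b, Tnf, Ccl3, Cxcl10 and Ptgs2, which also had large changes, held no match. The letters searched were GGGNNTTTCC on either strand, in the 250 bases before to 50 after each RefSeq gene start (GRCm38.p6, the mm10 build), and only the 250 bases before the start are printed, on the gene's strand, 5′ to 3′, with matches in capitals.
Cxcl1: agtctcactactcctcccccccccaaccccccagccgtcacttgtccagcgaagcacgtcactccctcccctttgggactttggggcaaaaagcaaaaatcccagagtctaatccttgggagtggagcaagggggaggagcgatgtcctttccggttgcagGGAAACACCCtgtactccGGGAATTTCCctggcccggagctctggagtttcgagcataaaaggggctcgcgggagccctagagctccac
Cxcl2: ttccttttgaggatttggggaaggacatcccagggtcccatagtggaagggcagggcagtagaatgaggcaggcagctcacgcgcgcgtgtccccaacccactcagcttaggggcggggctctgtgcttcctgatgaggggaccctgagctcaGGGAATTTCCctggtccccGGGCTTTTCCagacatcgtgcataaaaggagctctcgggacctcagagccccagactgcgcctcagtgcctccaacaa
Il6: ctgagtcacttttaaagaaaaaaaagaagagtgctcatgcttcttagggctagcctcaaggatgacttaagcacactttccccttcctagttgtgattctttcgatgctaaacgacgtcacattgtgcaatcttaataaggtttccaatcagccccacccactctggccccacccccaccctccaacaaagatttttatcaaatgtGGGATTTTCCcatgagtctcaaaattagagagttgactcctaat
These windows are chr5:90890995-90891244 for Cxcl1, chr5:90903649-90903898 for Cxcl2 and chr5:30012864-30013113 for Il6, all on the plus strand. Cxcl1 and Cxcl2, which lie side by side on chromosome 5, each held 2 matches, beginning 89 and 71 bases before the start in Cxcl1 and 97 and 78 bases before it in Cxcl2. Il6 held 1, at 44 bases. The motif was found in 1.67% of the windows of all tested genes. A match is a description of the letters and shows no binding.

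**Figure D4:**
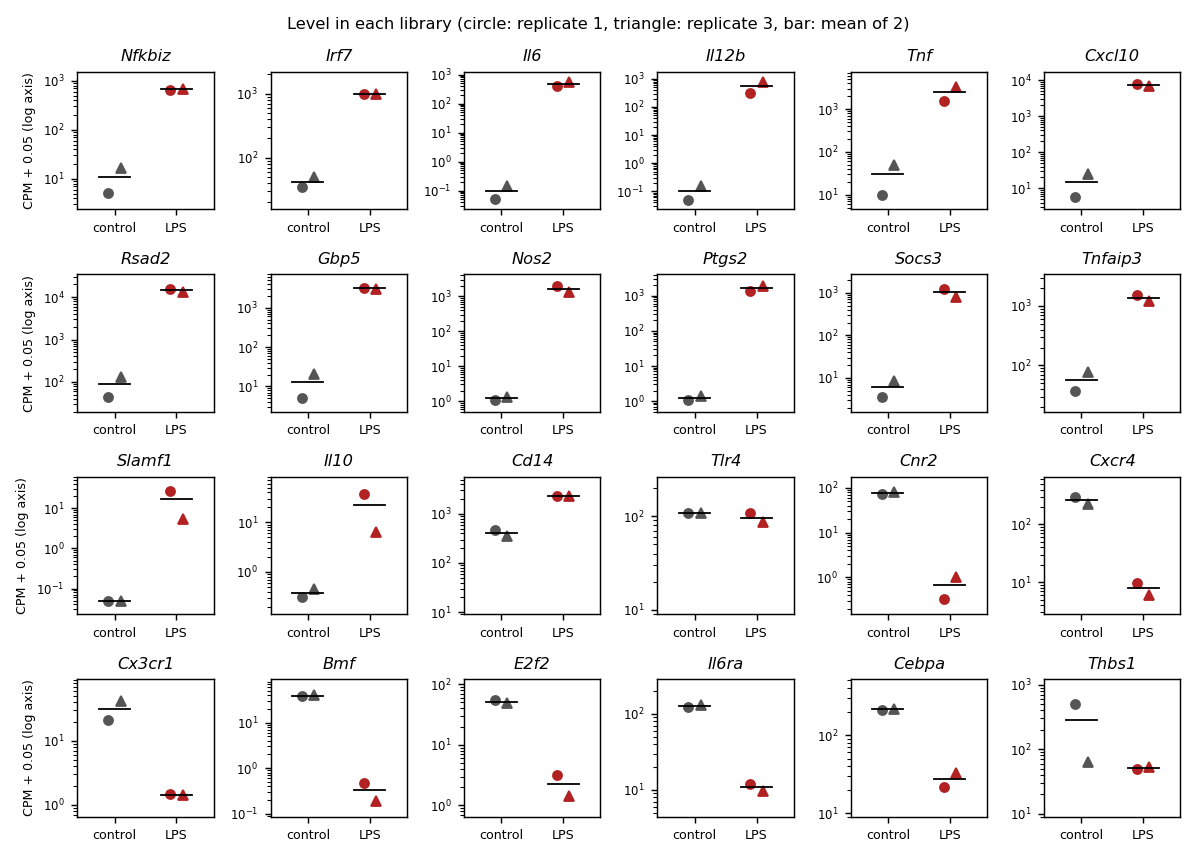
CPM plus 0.05 on a log axis in each of the 4 libraries for 24 genes, with circles for replicate 1, triangles for replicate 3 and bars for the mean of 2. Control (grey) and LPS (red) points do not overlap in any of them, but Tlr4 and Thbs1 did not pass the test; the 2 control points of Thbs1 are 503 and 63.2 CPM.

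Feedback inhibitors of cytokine and MAP kinase signalling rose more often than they fell. Of 25 tested MAP kinase phosphatases and SOCS inhibitors, 11 rose and 5 fell, at a median log2 fold change of 1.15. Socs3, which blocks signalling by Stat3-linked receptors, held 3.46 and 8.60 CPM in control and 1233 and 819.8 CPM with LPS (7.42 ± 0.53, adjusted p = 3.73e-05). Socs1, an inhibitor of interferon signalling, held 2.08 and 1.98 CPM in control and 247 and 159 CPM with LPS (6.64 ± 0.49). Dusp1, the phosphatase of p38 and Jnk, held 459 and 182 reads in control and 877 and 214 reads with LPS and did not pass (adjusted p = 0.2), with LPS replicate 3 lying between the control values in CPM. Dusp2 rose (4.29 ± 0.40), and Dusp3 fell (-1.59 ± 0.15).

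Enzymes that remove ubiquitin chains or inflammatory mRNAs moved likewise. Of 25 tested mRNA decay and ubiquitin brakes, 15 rose and 3 fell, at a median log2 fold change of 0.75. Tnfaip3, the ubiquitin-editing enzyme A20, held 36.5 and 77.1 CPM in control and 1539 and 1231 CPM with LPS (4.61 ± 0.48, adjusted p = 0.000205). Zc3h12a, the RNA-cutting enzyme Regnase-1, rose (3.56 ± 0.35). The mRNA decay factor Zfp36 rose, with 116 and 90.5 CPM in control and 716 and 408 CPM with LPS (2.44 ± 0.37), while its relatives Zfp36l2 and Zfp36l1 fell (-2.25 ± 0.38 and -3.50 ± 0.57). Zfp36l2 was thus lower in both LPS libraries than in either control, and Zfp36 higher.

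Antiviral genes rose almost throughout. Of 38 tested antiviral effectors, 35 rose and none fell, at a median log2 fold change of 3.71. Summed over the list they went from 2268 and 3371 CPM to 67560 and 59430 CPM. Rsad2, viperin, which makes a chain-terminating nucleotide, held 43.4 and 133 CPM in control and 15717 and 13138 CPM with LPS (7.36 ± 0.85, adjusted p = 0.000368). Its genomic neighbour Cmpk2, a nucleotide kinase, held 27.5 and 87.6 CPM in control and 7166 and 6915 CPM with LPS. Ifit1, which binds viral RNA, held 31.3 and 94.8 CPM in control and 5689 and 4360.4 CPM with LPS, and Isg15, a ubiquitin-like protein, 9.78 and 27.3 CPM in control and 901 and 1043 CPM with LPS. Control replicate 3 was above control replicate 1 in all 4 of these genes, and the LPS libraries lay close together.

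The interferon response element was searched as GAAANNGAAA, on either strand and with matches allowed to overlap, and is shown in capitals for 3 of these genes in the same 250 bases.
Ifit1: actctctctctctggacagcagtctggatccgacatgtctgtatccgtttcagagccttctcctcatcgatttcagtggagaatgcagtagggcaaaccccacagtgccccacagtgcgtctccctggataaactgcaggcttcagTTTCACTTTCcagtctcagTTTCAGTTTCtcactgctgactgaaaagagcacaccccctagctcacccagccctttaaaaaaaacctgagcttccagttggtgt
Isg15: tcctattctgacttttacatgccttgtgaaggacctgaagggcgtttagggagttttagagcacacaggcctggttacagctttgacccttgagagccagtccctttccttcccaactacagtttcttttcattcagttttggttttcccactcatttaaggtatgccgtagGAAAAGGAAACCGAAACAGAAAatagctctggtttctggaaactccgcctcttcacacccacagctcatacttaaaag
Rsad2: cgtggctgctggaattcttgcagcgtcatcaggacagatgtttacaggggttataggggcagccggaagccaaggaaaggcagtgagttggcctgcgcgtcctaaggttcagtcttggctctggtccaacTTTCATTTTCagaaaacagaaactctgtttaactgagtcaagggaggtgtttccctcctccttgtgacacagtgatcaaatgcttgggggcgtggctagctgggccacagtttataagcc
The windows are chr19:34640639-34640888 (plus strand) for Ifit1, chr4:156200819-156201068 (minus strand) for Isg15 and chr12:26456453-26456702 (minus strand) for Rsad2. Ifit1 held 2 matches, 104 and 85 bases before the start. Isg15 held 3 overlapping ones, which run into a single block from 78 bases before the start, and Rsad2 held 1 at 120 bases. Windows of all tested genes held the element in 3.31%.

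Guanylate-binding proteins and immunity-related GTPases, which attack the vacuoles of intracellular microbes, rose nearly without exception. Of 17 tested guanylate-binding proteins and immunity-related GTPases, 16 rose and none fell, at a median log2 fold change of 5.44. Gbp5 held 4.93 and 21.2 CPM in control and 3187 and 3063 CPM with LPS (7.91 ± 1.02, adjusted p = 0.000638). Gbp2 held 39.4 and 132 CPM in control and 2142 and 2516 CPM with LPS (4.76 ± 0.86), and Irgm1, a regulator of the family, 75.3 and 112 CPM in control and 1583 and 1609 CPM with LPS (4.09 ± 0.28). Members of these families resemble each other in sequence, so reads may have been shared between copies.

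The Schlafen and Ifi200 families, both known as interferon-responsive, rose. Of 20 tested Schlafen and Ifi200 genes, 20 rose and none fell, at a median log2 fold change of 4.54. Ifi205 held 1.30 and 3.07 CPM in control and 769 and 687 CPM with LPS (8.39 ± 0.56, adjusted p = 2.90e-05). Ifi204, a nuclear DNA sensor, held 72.1 and 86.6 CPM in control and 1261 and 1233 CPM with LPS (3.97 ± 0.19), and Slfn1 rose (5.91 ± 0.33). Copies within both families are near-identical in parts, so the values of single members are uncertain.

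Position along the chromosomes showed these blocks directly. Among tested genes in chromosomal order there were 7 runs of at least 8 neighbours called in the same direction, 6 of genes that rose and 1 of genes that fell. Among those that rose were 10 genes on chromosome 11 from Irgm1 to Ifi47 (48861968 to 49135387, mm10, median 4.27) and 10 from Slfn5 to AI662270 on the same chromosome (82951349 to 83226604, median 3.60). A run of 8 on chromosome 14 (59201209 to 59585764, median 4.13) held the Phf11 genes and Setdb2. The call of AI662270 ended with library totals alone and when control replicate 1 was left out (adjusted p 0.0727 to 0.269).

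Co-stimulatory and checkpoint ligands rose in the main. Of 23 tested co-stimulatory and checkpoint ligands, 15 rose and 2 fell, at a median log2 fold change of 1.76. Cd274, PD-L1, held 118 and 117 CPM in control and 2363 and 2153 CPM with LPS (4.26 ± 0.20, adjusted p = 1.03e-05). Cd69 held 1.13 and 1.98 CPM in control and 945 and 813 CPM with LPS (9.15 ± 0.52). Cd86 held 58.4 and 28.2 CPM in control and 130.1 and 93.1 CPM with LPS (1.36 ± 0.34, adjusted p = 0.0151) and Cd80 6.58 and 3.56 CPM in control and 23.9 and 8.70 CPM with LPS, which did not pass. Slamf1 was seen with LPS only, at 27.7 and 5.53 CPM, at least 119.6-fold higher. The call of Cd86 ended with library totals alone and when control replicate 3 or LPS replicate 1 was left out (adjusted p 0.0518 to 0.114). Vsir, the checkpoint ligand VISTA, fell (-1.30 ± 0.14).

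The immunoproteasome subunits rose. Of 24 tested immunoproteasome and constitutive proteasome genes, 14 rose and none fell, at a median log2 fold change of 0.68. With library totals alone 10 rose and 8 fell. Psmb8 held 34.6 and 64.3 CPM in control and 182 and 245 CPM with LPS (2.11 ± 0.38, adjusted p = 0.00359), and Psmb9 and Psmb10 rose (2.32 ± 0.27 and 2.48 ± 0.41). Psmb5, which Psmb8 replaces in the particle, held 50.6 and 62.8 CPM in control and 66.4 and 89.7 CPM with LPS (adjusted p = 0.0898). Psme1 and Psme2, the activator cap, rose (1.51 ± 0.14 and 2.84 ± 0.44).

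Nitric oxide and prostaglandin synthesis were each raised at the inducible enzyme. Of 19 tested arginine, nitric oxide and polyamine genes, 7 rose and 3 fell (6 and 7 with library totals alone), at a median log2 fold change of 0.22 (-0.38 with library totals alone and -0.044 with upper-quartile factors). Nos2, inducible nitric oxide synthase, held 1.04 and 1.29 CPM in control and 1914 and 1338 CPM with LPS (10.44 ± 0.35, adjusted p = 4.98e-06). Its arginine importer Slc7a2 held 14.8 and 22.9 CPM in control and 869 and 869 CPM with LPS (5.53 ± 0.26), Gch1, which makes its cofactor, rose (3.30 ± 0.36), and Ass1, which remakes arginine (1.62 ± 0.22). Arg1 held 1 read in control and 0 with LPS. Slc7a2, Gch1 and Ass1 thus rose with Nos2. The 3 members that fell were Spr (-0.93 ± 0.17), Ddah2 (-1.48 ± 0.43) and the polyamine gene Amd1 (-0.89 ± 0.18).

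Ptgs2, cyclooxygenase 2, held 1.04 and 1.38 CPM in control and 1420.4 and 1859 CPM with LPS (10.40 ± 0.41, adjusted p = 9.01e-06). Of 20 tested prostaglandin and leukotriene genes, 3 rose and 3 fell (3 and 10 with library totals alone, 3 and 5 with upper-quartile factors, 3 and 6 with DESeq2, 3 and 9 with no filter on low counts), at a median log2 fold change of -0.43. Besides Ptgs2 only Ptges, which makes prostaglandin E2 (3.08 ± 0.45), and Pla2g4a, which frees arachidonic acid (2.07 ± 0.21), rose. The leukotriene gene Alox5ap held 126 and 121 CPM in control and 85.0 and 83.9 CPM with LPS and fell (-0.55 ± 0.11).

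For metabolic genes the counts that changed were not above the shares of all tested genes, 21.8% and 18.6%, and a few are named. Of 23 tested itaconate, lactate and HIF genes, 5 rose and 3 fell (4 and 11 with library totals alone, 5 and 7 with upper-quartile factors), at a median log2 fold change of 0.20 (-0.40 with library totals alone and -0.065 with upper-quartile factors). Acod1, which makes itaconate from a Krebs cycle intermediate, held 79.5 and 320.4 CPM in control and 9184 and 10319 CPM with LPS (5.61 ± 1.04, adjusted p = 0.0039), with control replicate 3 well above control replicate 1. Idh1 fell, with 312 and 315 CPM in control and 74.8 and 56.7 CPM with LPS (-2.25 ± 0.23). Hif1a, the hypoxia factor, rose (1.55 ± 0.25), while Ldha, lactate dehydrogenase, held 731 and 681 CPM in control and 796 and 827 CPM with LPS and did not pass.

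Of 29 tested oxidant and antioxidant genes, 11 rose and 3 fell (5 and 7 with library totals alone, 7 and 4 with upper-quartile factors, 7 and 1 leaving out control replicate 1, 7 and 3 leaving out control replicate 3, 7 and 2 leaving out LPS replicate 1, 7 and 0 leaving out LPS replicate 3), at a median log2 fold change of 0.65. Sod2, the mitochondrial superoxide dismutase, held 92.9 and 262 CPM in control and 1138 and 1589 CPM with LPS (2.94 ± 0.59, adjusted p = 0.00548). Slc7a11, the cystine importer for glutathione, held 217 and 68.2 CPM in control and 1066 and 1001 CPM with LPS (2.86 ± 0.52). Hmox1, heme oxygenase, held 924 and 402 CPM in control and 703 and 374 CPM with LPS and did not pass. Cat, catalase, fell (-1.08 ± 0.26, adjusted p = 0.0131), with both LPS libraries lower. The call of Cat ended when control replicate 1 or LPS replicate 3 was left out (adjusted p 0.0586 to 0.0788).

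Iron genes included both strong increases and strong decreases. Of 22 tested iron and heme handling genes, 6 rose and 7 fell (5 and 12 with library totals alone, 6 and 5 leaving out control replicate 1, 7 and 5 leaving out LPS replicate 3), at a median log2 fold change of -0.21. Lcn2, which binds bacterial iron carriers, held 3 reads in control and 43.8 and 27.2 CPM with LPS, with a ratio of 256 and a 95% counting interval from 87.2 to 1246. The iron importer Slc39a14 rose (3.38 ± 0.28). Slc40a1, ferroportin, the iron exporter, held 355 and 92.7 CPM in control and 27.7 and 7.32 CPM with LPS (-3.68 ± 1.01, adjusted p = 0.0215), and the heme exporter Flvcr1 held 127 and 102 CPM in control and 24.6 and 15.3 CPM with LPS (-2.52 ± 0.31). For Slc40a1 each LPS library was below the control library of the same number by a similar ratio, although the control libraries lay far apart. Whether same-numbered libraries are matched is not known. The call of Slc40a1 ended when control replicate 1 or LPS replicate 3 was left out (adjusted p 0.102 to 0.106).

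Lipid genes rose and fell in shares close to those of all tested genes, 21.8% and 18.6%. Of 32 tested sterol efflux, oxysterol and lipid-droplet genes, 8 rose and 6 fell (3 and 14 with library totals alone, 4 and 11 with upper-quartile factors, 7 and 9 with no filter on low counts, 3 and 6 leaving out control replicate 1, 4 and 6 leaving out control replicate 3, 3 and 6 leaving out LPS replicate 3), at a median log2 fold change of 0.0025 (-0.60 with library totals alone and -0.26 with upper-quartile factors). Ch25h, which makes 25-hydroxycholesterol, held 2 control reads and 73.2 and 29.3 CPM with LPS, with a ratio of 554 and a 95% counting interval from 153 to 4582, with an adjusted p of 0.000275. Scd2, a fatty acid desaturase, fell, with 193 and 166 CPM in control and 21.4 and 13.5 CPM with LPS (-3.36 ± 0.45), as did Soat1, which esterifies cholesterol (-1.96 ± 0.16). Of 34 tested solute carriers, 18 rose and 7 fell (12 and 12 with library totals alone), at a median log2 fold change of 0.77. Slc43a2, an amino acid carrier, fell, with 877 and 767 CPM in control and 96.0 and 84.3 CPM with LPS (-3.19 ± 0.17), and Slco3a1, an organic anion carrier, rose (4.82 ± 0.26).

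Surface receptors for chemoattractants and lipids held both deep losses and large increases. Of 36 tested chemoattractant, purine and lipid receptors, 14 rose and 9 fell (13 and 14 with library totals alone), at a median log2 fold change of 0.43 (-0.16 with library totals alone). Cnr2, the cannabinoid receptor of immune cells, held 74.3 and 79.7 CPM in control and 0.280 and 0.967 CPM with LPS (-6.91 ± 0.35, adjusted p = 1.30e-05). Cxcr4, which retains cells in the marrow, held 303 and 222 CPM in control and 9.80 and 6.08 CPM with LPS (-5.05 ± 0.27). Cx3cr1, the fractalkine receptor, held 21.5 and 41.4 CPM in control and 1.40 and 1.38 CPM with LPS (-4.48 ± 0.44), and Ccr2, the receptor for Ccl2 and Ccl7, fell (-3.05 ± 0.50). Gpr183, a receptor for oxysterols made from the product of Ch25h, fell from 442 reads to 3, with a ratio of 97.8 and a 95% counting interval from 33.2 to 476. In none of these 5 genes did a value with LPS reach a control value.

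Other receptors of this list rose. Adora2a, an adenosine receptor that dampens inflammation, held 0.865 and 1.58 CPM in control and 137 and 224 CPM with LPS (7.21 ± 0.54, adjusted p = 4.59e-05). Hcar2, the receptor for niacin and ketone bodies, rose (5.90 ± 0.44), and Ccrl2, a chemerin-binding receptor (5.55 ± 0.51). Of the cytokine receptors, 15 of 30 tested members rose and 4 fell (8 and 8 with library totals alone), at a median log2 fold change of 0.91. Il6ra, the IL-6 receptor, fell, with 122 and 129 CPM in control and 11.8 and 9.67 CPM with LPS (-3.55 ± 0.17, adjusted p = 1.05e-05), so that the ligand Il6 rose while its receptor fell. Il15ra rose (5.68 ± 0.36) and the kinase Jak2 (4.30 ± 0.19).

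Phagocytic receptors and lectins rose more often than they fell on the TMM scale and less often with library totals alone. Of 28 tested scavenger, phagocytic and Fc receptors, 11 rose and 3 fell (8 and 11 with library totals alone), at a median log2 fold change of 0.54 (-0.06 with library totals alone). Msr1, a scavenger receptor, held 130.1 and 174 CPM in control and 765 and 703 CPM with LPS (2.27 ± 0.24, adjusted p = 0.000243), and Fcgr1, the high-affinity antibody receptor, rose (2.22 ± 0.18). Trem2 held 691 and 769 CPM in control and 655 and 589 CPM with LPS and did not pass. Trem2 fell with library totals alone (-0.83, adjusted p = 0.00152) and with upper-quartile factors (-0.5, adjusted p = 0.0188). Of 26 tested C-type lectins and paired myeloid receptors, 10 rose and 4 fell (5 and 7 with library totals alone, 6 and 2 leaving out control replicate 1, 6 and 2 leaving out LPS replicate 3), at a median log2 fold change of 0.49 (-0.10 with library totals alone). Clec4e, Mincle, which binds a mycobacterial glycolipid, held 181 and 423 CPM in control and 2587 and 4644 CPM with LPS (3.58 ± 0.74), while Cd84 fell (-1.16 ± 0.15).

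Vascular and matrix genes mostly rose where they changed. Of 25 tested complement and coagulation genes, 11 rose and 1 fell (7 and 1 leaving out control replicate 1), at a median log2 fold change of 0.53 (-0.071 with library totals alone). Edn1, endothelin, a vessel-constricting peptide, held 1 control read and 223 and 184 CPM with LPS, with a ratio of 4410.0 and a 95% counting interval from 791 to 174200.0, with an adjusted p of 1.53e-05. Complement C3 rose, with 74.9 and 112 CPM in control and 879.9 and 1148 CPM with LPS (3.44 ± 0.27). Thbd, thrombomodulin, an anticoagulant receptor, fell, with 17.4 and 10.7 CPM in control and 1.96 and 0.553 CPM with LPS (-3.47 ± 0.60). Of 33 tested matrix proteases and adhesion molecules, 17 rose and 3 fell (10 and 3 leaving out control replicate 1), at a median log2 fold change of 0.92. Icam1, the ligand of beta2 integrins, held 65.1 and 132 CPM in control and 2464 and 3279.6 CPM with LPS (4.86 ± 0.58), and the collagenase Mmp13 rose (5.33 ± 0.61), whereas the integrin Itgb3 fell (-2.28 ± 0.25).

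Genes of cell shape rose in part. Of 38 tested actin, GTPase signalling and cell shape genes, 21 rose and 3 fell, at a median log2 fold change of 1.14. Fscn1, which bundles actin, held 0.0865 and 0.297 CPM in control and 35.3 and 24.6 CPM with LPS (7.23 ± 0.57, adjusted p = 5.74e-05), and Marcksl1 rose (4.76 ± 0.57). Rasgrp3, an activator of Ras proteins, fell (-4.49 ± 0.71). Of 29 tested semaphorin, Notch, Wnt and Hedgehog genes, 13 rose and 6 fell, at a median log2 fold change of 0.75. The Notch ligand Jag1 held 10.6 and 16.9 CPM in control and 66.1 and 121 CPM with LPS (2.77 ± 0.39), and the receptors Notch1 and Notch2 rose (1.98 ± 0.18 and 2.75 ± 0.24), while Lfng, an enzyme that modifies them, fell (-2.48 ± 0.38).

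Death regulators rose more often than they fell. Of 34 tested apoptosis and necroptosis regulators, 18 rose and 4 fell, at a median log2 fold change of 0.84. The share that rose was above the 21.8% of all tested genes, and the share that fell was below their 18.6%. Cflar, which holds back caspase 8, held 72.2 and 113 CPM in control and 1901 and 2058 CPM with LPS (4.42 ± 0.29, adjusted p = 2.90e-05). Bcl2a1b, a survival factor of the Bcl2 family with near-identical copies, rose (4.68 ± 0.31). Bmf, a death-promoting member of that family, held 38.2 and 40.7 CPM in control and 0.420 and 0.138 CPM with LPS (-7.08 ± 0.41, adjusted p = 1.80e-05). Casp4, caspase 11, which senses cytosolic LPS, held 17.5 and 19.7 CPM in control and 258 and 207 CPM with LPS (3.64 ± 0.22), and Casp9, of the mitochondrial death pathway, fell (-1.96 ± 0.15). Cflar and Casp4 were thus far above control in both LPS libraries and Bmf was nearly absent from them.

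Of 26 tested inflammasome and cytosolic sensors, 12 rose and 7 fell (10 and 10 with library totals alone), at a median log2 fold change of 0.42 (-0.19 with library totals alone). Nlrp3 held 49.1 and 68.8 CPM in control and 510.0 and 927 CPM with LPS (3.61 ± 0.34, adjusted p = 0.000132). Nod1, a sensor of bacterial cell wall, rose (4.64 ± 0.25), and Tlr3, for double-stranded RNA (4.10 ± 0.21). Tlr13, which senses bacterial ribosomal RNA, fell, with 511 and 447 CPM in control and 167 and 184 CPM with LPS (-1.45 ± 0.16), and so did Mavs, the adaptor of RNA sensors (-1.14 ± 0.14). Of 42 tested lysosome and autophagy genes, 5 rose and 11 fell (3 and 32 with library totals alone, 3 and 18 with upper-quartile factors, 4 and 7 leaving out control replicate 1, 3 and 6 leaving out control replicate 3, 3 and 6 leaving out LPS replicate 1, 3 and 7 leaving out LPS replicate 3), at a median log2 fold change of -0.10. Their summed level was 57910 and 62800 CPM in control and 58860 and 61090 CPM with LPS, with overlap.

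Genes of cell division fell more often than they rose, most clearly those of mitosis. Of 52 tested mitosis genes, 2 rose and 32 fell (1 and 16 leaving out control replicate 1, 0 and 13 leaving out LPS replicate 3), at a median log2 fold change of -1.38. Against that stood the 18.6% of all tested genes that fell. The 2 mitosis genes that rose were Mad2l1 and Tpx2 (0.89 ± 0.23 and 0.84 ± 0.26), and Cdk1 and Ccnb1 did not pass. Kif23, a kinesin of cell separation, held 35.0 and 20.3 CPM in control and 5.74 and 3.45 CPM with LPS (-2.59 ± 0.52, adjusted p = 0.00543), and Cenpf, a kinetochore protein, 31.8 and 17.8 CPM in control and 4.06 and 2.63 CPM with LPS (-2.89 ± 0.55). Mki67 held 178 and 101 CPM in control and 204 and 149.6 CPM with LPS and did not pass, with LPS replicate 1 above both control libraries and LPS replicate 3 between them. Control replicate 1 was the higher control library for Kif23, Cenpf and Mki67. Summed over the list control replicate 1 held 1776 CPM against 1131 CPM in control replicate 3, with 985 and 751 CPM in the LPS libraries.

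Of 44 tested DNA replication licensing and synthesis genes, 3 rose and 14 fell (1 and 29 with library totals alone, 4 and 22 with no filter on low counts, 3 and 7 leaving out control replicate 1, 3 and 6 leaving out LPS replicate 3), at a median log2 fold change of -0.74. Rrm2, which supplies deoxynucleotides, held 37.7 and 26.4 CPM in control and 5.74 and 4.01 CPM with LPS (-2.72 ± 0.33, adjusted p = 0.000467), and Dnmt1, which copies DNA methylation, 178 and 131 CPM in control and 36.4 and 26.0 CPM with LPS (-2.31 ± 0.31). Mcm5, of the replicative helicase, did not pass (-0.39 ± 0.42). Of 46 tested DNA damage response and repair genes, 2 rose and 19 fell (2 and 9 leaving out LPS replicate 3), at a median log2 fold change of -0.87. Brca1 fell (-2.60 ± 0.54), and the checkpoint kinase Chek2 (-2.54 ± 0.56), while the damage kinase Atm rose, with 24.1 and 18.7 CPM in control and 92.4 and 80.7 CPM with LPS (2.01 ± 0.18).

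The G1 regulators gave a mixed account. Of 29 tested cyclins, cyclin-dependent kinase inhibitors and G1 regulators, 8 rose and 11 fell (8 and 8 in the 4 libraries alone, 7 and 7 leaving out control replicate 1), at a median log2 fold change of -0.19. Cdkn1a, the inhibitor p21, held 114 and 100.0 CPM in control and 1416 and 2286 CPM with LPS (4.11 ± 0.28, adjusted p = 3.26e-05). Ccnd2, cyclin D2, held 0.433 and 0.890 CPM in control and 288 and 164 CPM with LPS (8.41 ± 0.43). E2f2, of the E2F family that drives S phase genes, held 54.6 and 48.4 CPM in control and 3.08 and 1.38 CPM with LPS (-4.52 ± 0.39). An inhibitor and a cyclin thus rose side by side, while E2f2 and E2f1 (-1.39 ± 0.20) fell.

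Lineage factors of macrophages moved in both directions, beside 21.8% of all tested genes that rose and 18.6% that fell. Of 32 tested macrophage lineage and nuclear receptor factors, 8 rose and 10 fell (10 and 9 leaving out LPS replicate 1), at a median log2 fold change of -0.39. Cebpa held 212 and 215 CPM in control and 21.8 and 32.2 CPM with LPS (-2.98 ± 0.21, adjusted p = 3.26e-05), whereas its relative Cebpb held 140.0 and 149 CPM in control and 504 and 711 CPM with LPS and rose (2.07 ± 0.28). Rxra, the partner of many nuclear receptors, fell (-2.66 ± 0.24), as did Pparg (-2.25 ± 0.36). Cebpd (3.61 ± 0.69), Tfec (2.30 ± 0.18), Nr3c1 (1.88 ± 0.15) and Mitf (1.31 ± 0.24) rose. Spi1, PU.1, held 339 and 442 CPM in control and 529.9 and 756 CPM with LPS and did not pass (adjusted p = 0.0574). Both C/EBP genes were clear of overlap, in opposite directions.

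Histone and DNA modifying enzymes changed in shares close to those of all tested genes, 21.8% and 18.6%. Of 65 tested histone and DNA modifying enzymes, 14 rose and 14 fell (8 and 40 with library totals alone, 10 and 26 with upper-quartile factors, 9 and 13 leaving out control replicate 3), at a median log2 fold change of -0.14. Setdb2, a member of a histone methyltransferase family, held 12.7 and 12.9 CPM in control and 212 and 197 CPM with LPS (3.99 ± 0.15, adjusted p = 9.01e-06), and Tet2, which oxidises methylated cytosine, rose (2.50 ± 0.18). Hdac5, a histone deacetylase, fell, with 92.4 and 114 CPM in control and 13.4 and 14.4 CPM with LPS (-2.89 ± 0.18). Of 34 tested circadian and stress-response factors, 9 rose and 8 fell (5 and 13 with library totals alone, 6 and 11 with upper-quartile factors, 6 and 8 leaving out control replicate 3, 6 and 7 leaving out LPS replicate 3), at a median log2 fold change of 0.14 (-0.46 with library totals alone and -0.12 with upper-quartile factors). The clock-output factors Dbp and Tef fell (-4.22 ± 0.58 and -2.27 ± 0.22) and the clock gene Per3 (-3.30 ± 0.36), while Ppp1r15a, a gene of the integrated stress response, rose (2.07 ± 0.28).

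Of 99 tested Kruppel-type zinc finger genes named Zfp, 15 rose and 17 fell (7 and 57 with library totals alone, 11 and 34 with upper-quartile factors, 14 and 27 with no filter on low counts), at a median log2 fold change of -0.50. These shares were not above those of all tested genes, 21.8% and 18.6%. The list goes by name and includes the mRNA decay factor Zfp36, which is not of that type. Zfp395 held 21.5 and 19.7 CPM in control and 0.140 and 0 CPM with LPS (-7.95 ± 0.48, adjusted p = 2.04e-05), 447 reads against 1, with a ratio of 297 and a 95% counting interval from 53.0 to 11740.0. Zfp800 held 22.3 and 17.2 CPM in control and 295 and 304 CPM with LPS and rose (3.92 ± 0.16). By the transcription factor families of the deposited table, 153 of 791 tested factors rose and 156 fell, with a median of -0.225. These shares were close to those of all tested genes, and the counts became 96 and 397 with library totals alone. In its IRF family 6 of 8 rose and none fell (5 and 1 with library totals alone), and in its STAT family 5 of 7 rose and 1 fell, while of the 381 C2H2 zinc finger factors 48 rose and 68 fell, which was 26 and 206 with library totals alone.

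Some genes were close to off in one state. With at most 3 reads over both control libraries 125 genes were called higher, 51 of them with 0, and with at most 3 reads over both LPS libraries 75 were called lower, 18 of them with 0. Genes this low in a group passed the filter only through reads in other groups. These counts are thus a description and no test, and the number of such genes without a call is not given here. Serpina3f, a protease inhibitor with near-identical neighbours, held 0 control reads and 32.5 and 28.5 CPM with LPS, at least 220.0-fold higher. Ptx3, a secreted pattern-recognition protein, held 0 and reached 21.3 and 20.9 CPM, at least 152.2-fold higher. In the other direction Angptl4, an inhibitor of lipoprotein lipase, held 3.63 and 5.04 CPM in control and 0 reads with LPS, at least 20.6-fold lower, and Vash2 fell from 252 reads to 2, with a ratio of 83.6 and a 95% counting interval from 22.9 to 694. Intervals and limits of this kind cover counting error only.

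Among genes that do not code for protein, Mir155hg, the host transcript of miR-155, held 3 control reads and 35.3 and 26.9 CPM with LPS, with a ratio of 224 and a 95% counting interval from 76.3 to 1093. These counts measured the host transcript and not the mature microRNAs, whose RefSeq sequences are given here because they are what the transcript yields, with the seed (bases 2 to 8) in capitals.
miR-155-5p: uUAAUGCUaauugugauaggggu
miR-155-3p: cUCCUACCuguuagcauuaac
The arms lie on chromosome 16 (chr16:84714143-84714165 and chr16:84714182-84714202, GRCm38.p6, plus strand) and do not share a seed. Cxcl11, listed as a polymorphic pseudogene, held 2 control reads and 70.4 and 12.6 CPM with LPS, with a ratio of 448 and a 95% counting interval from 123 to 3704. Il1bos, antisense to Il1b, held 0 control reads and 39 with LPS. No source used here says whether counting used the strand, so reads of Il1b and Il1bos cannot be told apart.

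Promoter windows were then described over the called classes. Of 10854 tested protein-coding genes on placed chromosomes other than 18, 82.9% had a window, and the genes that rose or fell at least 2-fold were covered to 82.0% and 82.9%. The interferon element was in 8.56% of windows of genes that rose, 1.07% of those that fell and 3.31% of all. The NF-kB letters were in 3.06%, 1.34% and 1.67%, and the AP-1 letters TGANTCA in 7.64%, 4.56% and 4.82%. The median number of CpG dinucleotides per window hardly differed, at 20, 22 and 21. Windows with at most 1 CpG were more frequent among genes that rose, at 4.43%, 1.43% and 1.69%. Genes that changed by at least 3 on the log2 scale had windows for 79.1% and 75.0% only, under the 80% needed here, so this check is void for them.

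Lists with windows for at least 80% of members can be set beside that background, and 3 are given. Among Schlafen and Ifi200 genes, 61.1% of 18 windows held the interferon element, against 3.31%. Mitosis genes held the letters TTTGAA, the core of the cell cycle homology region, in 72.1% of 43 windows, against 11.9% of all windows, and CCAAT in 65.1% against 39.0%. Replication genes held the E2F letters TTTNGCGC in 9 of 36 windows, against 2.58% of all. Genes of a list are related by function or descent, and these shares carry no test.

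The size of the LPS effect was alike in the replicates for most genes. Among 10204 genes with at least 10 reads in every library, the log2 fold change within number 1 and that within number 3 differed by a median of 0.25, and by over 2 in 34 genes. No called gene had opposite signs, which follows from the lack of overlap between groups in the called genes and is no further check. Thbs1, thrombospondin, held 503 and 63.2 CPM in control and 49.7 and 52.9 CPM with LPS. It was high in control replicate 1 alone and did not pass (-2.47 ± 0.97, adjusted p = 0.0763). Rnd1, a small GTPase, held 0.865 and 0.989 CPM in control and 214 and 36.9 CPM with LPS, and Tnip3, an inhibitor of NF-kB signalling, 36.6 and 77.5 CPM in control and 728 and 272 CPM with LPS. These 2 were high in LPS replicate 1 and rose (7.06 ± 1.26 and 3.13 ± 0.59). Saa3, an acute-phase protein, held 1.04 and 11.4 CPM in control and 604 and 802 CPM with LPS and rose (6.85 ± 1.10), with the difference between numbers lying in the control libraries.

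**Figure D5:**
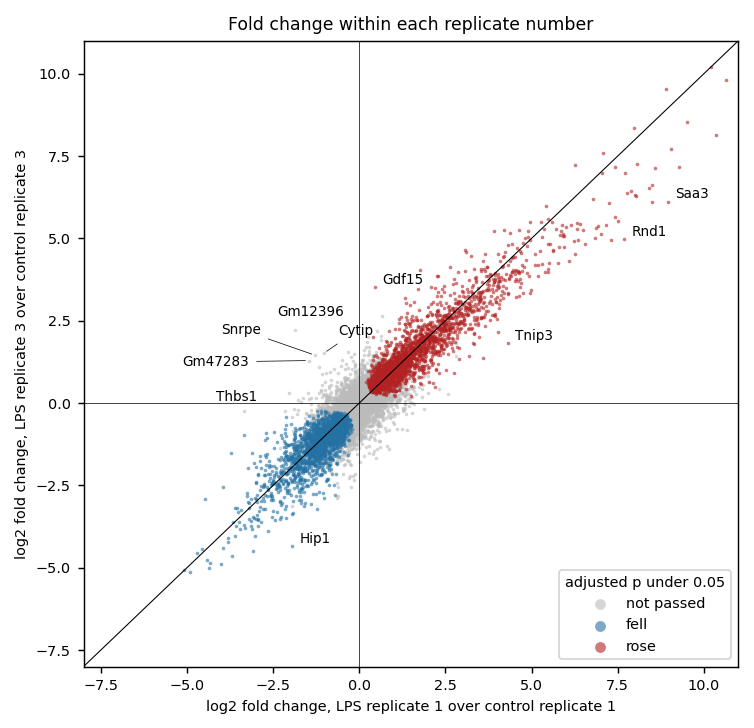
Log2 fold change of LPS over control within replicate 1 (x axis) and within replicate 3 (y axis) for 10204 genes with at least 10 reads in every library, coloured by the call and with the identity line. The 10 genes with the largest differences are named, and 34 genes differ by over 2. No called gene has opposite signs, which follows from the lack of overlap between groups in the called genes.

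The direction was also looked up in the 4 IL-4 libraries. They share no library with this comparison but entered its filter and its estimate of the spread. Of 2615 genes that rose and could be tested there, 2604 were higher with LPS in IL-4-exposed cells too, and of 2246 that fell 2237 were lower. Among 1735 that rose at least 2-fold here, 1528 were at least 2-fold higher there, and among 1421 that fell as much, 1192 were at least 2-fold lower. The same counts over all tested genes are not given here. Whether same-numbered libraries came from the same animals is unknown, so these counts are not an independent replication.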

How the data were processed

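RNA-seq counts per gene from 8 libraries of mouse BMDMs were deposited by the authors as raw counts in a single table, without normalization. The submitters' processing notes name the mm10 build, HISAT2, StringTie and HTSeq, and the versions and the strand setting are not given in the sources used here. A further 6 count columns match no sample label and were not used.

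From these counts, genes with too few reads were removed with filterByExpr, libraries were scaled by TMM factors, and 1 mean per group was fitted over all 8 libraries with edgeR 4.0.16 in R 4.3.3 (glmQLFit and glmQLFTest, contrast LPS minus control, Benjamini-Hochberg adjustment over 12234 genes, threshold 0.05). CPM values use the TMM-scaled library sizes. The steps were run on simulated counts with known fold changes in a small part of the genes. That simulation does not cover the scale between libraries under changes as broad as those seen here. The 2 libraries per group held 8480057 to 9247019 counts, and their number limits the precision. Alternatives were library totals alone, RLE and upper-quartile factors, no filter, DESeq2 1.42.0, the 4 libraries alone, a replicate block and leaving out each library.

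Named genes were core members of each list, the called members with the largest changes, genes with the most reads among those at 0 to 3 reads in the other group, members of the longest runs of neighbours, non-coding genes and genes that differed most between replicate numbers. Ifnb1 and Xist were added after their values were seen, and Ccl2 and Bcl2 appear as background only. The members and lists were chosen with earlier results of these data known, so no list carries a test of its own. Promoter windows and microRNAs came from RefSeq (GRCm38.p6) and were matched by symbol, 124 of them by an older symbol, which gave 9002 of 10854 genes. Counting intervals are exact Clopper-Pearson intervals, and 3 reads is the limit for a count of 0. PCR reads are not independent molecules, so these cover counting error only. Results for some genes are not reported here.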

Additional observations from a re-analysis of the deposited data

How the results depend on the processing

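The scale between libraries had the largest effect among the alternatives run. With library totals alone the counts became 1547 up and 5745 down (at least 2-fold, 1156 and 3511), so that increases made up 21.2% of calls against 53.9%. With upper-quartile factors 3542 genes fell and increases made up 36.6%. With library totals alone the sign turned for Cd68 (-0.53), Irf3 (-0.60) and Ldha (-0.40), none of which passed on the TMM scale. Over all genes, of the 2663 called higher on that scale 1547 kept the call with library totals alone, 837 lost it and 279 changed sign. Leaving out 1 library at a time gave 1829 to 2258 genes that rose and 1397 to 1832 that fell, 1492 to 1707 and 1059 to 1442 at least 2-fold, with increases at 54.2% to 60.2% of calls. The lowest count of genes that fell, 1397, came without LPS replicate 3. A group left with 1 library was assumed to vary like the others. RLE factors, DESeq2, no filter and the 4 libraries alone kept each of these counts within 1.5 times its value.

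With the replicate block 3453 genes rose and 3121 fell, 1893 and 1708 at least 2-fold. The labels do not say that a number marks a shared animal or day, but deviations of same-numbered libraries from their group means correlated (r = 0.361 for LPS and control, 0.343 to 0.524 over the 6 pairs of groups), a hint from the data and not the design. Among the named genes the block kept each call and added Dusp1 (adjusted p = 0.00466), Spi1 (0.000326), Cd80 (0.00064), Psmb5 (0.0076), Fos (0.0398) and Thbs1 (0.037). The motif shares at a log2 change of at least 3 were not compared, since under 80% of those genes had a promoter window. With 2 libraries per group no sample could be tested as standing apart.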
